A study of Mus musculus with 8 samples.

Results

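The cells described here are endothelial cells of the mouse kidney chosen by the counts of a few genes, among them Sox17 and Adamts9. They number 835 of the 90855 cells that passed the limits on cell quality. A cell was a member when it had at least 2 counts over the general endothelial genes Flt1, Ptprb, Emcn, Adgrl4 and Ldb2, at least 3 counts over Sox17, Sema3g, Adamts9, Eln, Jam2 and Fbxl7, and no fewer counts over these 6 genes than over the capillary genes Plvap, Igfbp5 and Plpp1. Cells with more than 1 count over the complement C1q genes, over Pax5 and Themis, or over Slc12a1 and Lrp2 were left out. The 6626 endothelial cells with at least 3 counts over Plvap, Igfbp5 and Plpp1, and more of these than of the first 6 genes, served as the comparison and are called capillary cells after those genes.

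The study asked what entospletinib (GS-9973), an inhibitor of the kinase SYK, does to kidneys after ischemia-reperfusion injury (IRI). Single cells were sorted live, enriched for leukocytes, fixed and profiled by split-pool barcoding. The 7 conditions were untouched control kidneys, and kidneys 1, 7 and 14 days after unilateral IRI of the left kidney in mice given vehicle (DMSO) or entospletinib by intraperitoneal injection. All mice were male wild-type C57BL/6, with 3 mice pooled in each condition. Age was not given in the sources used here. Because each condition was 1 pool, no condition could be set against another with a test, and only differences repeated over the 3 days were tested. The cells of each condition were spread over 8 sublibraries, which are technical portions of the same pool.

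The members came to 157 cells in control kidneys, 176, 29 and 70 at days 1, 7 and 14 after IRI with vehicle, against 152, 143 and 108 at the same days with entospletinib. Their median depth lay between 1106 counts per cell, in the day 14 entospletinib pool, and 3281.5, in the day 14 vehicle pool, against 2456 over all members and 2556.5 over the capillary cells. The summed counts of the members ranged from 105304 in the day 7 vehicle pool to 645003 in the day 1 vehicle pool, so the day 7 vehicle values are the least precise. The same barcode combination recurred in another sublibrary, among all cells, for 168 of the 835 members, and in another member for 4 of them.

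Blood enters the kidney through arteries and arterioles, passes the glomerular capillaries, and then reaches the peritubular capillaries of the cortex or the descending vasa recta, which carry it into the medulla. Arterial endothelium is known for Notch ligands and receptors, for the gap junction proteins that couple its cells, and for transcription factors of the SoxF family such as Sox17. Endothelium of the descending vasa recta is known for the water channel Aqp1 and the urea transporter Slc14a1. Sema3g encodes a secreted semaphorin of arterial endothelium, Adamts9 a metalloprotease that cleaves proteoglycans of the matrix, Eln the elastin of arterial walls, Jam2 a junctional adhesion molecule and Fbxl7 a subunit of ubiquitin ligases.

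In the annotation of GRCm38, Sox17 lies at chr1:4490931-4497354, Adamts9 at chr6:92772699-92943492 and Fbxl7 at chr15:26540459-26895580, each on the minus strand. Promoter sequences from RefSeq (GRCm38.p6) were searched because Sox proteins bind short motifs around AACAAT, and the members were chosen with Sox17. The letters AACAAT, or ATTGTT for the other strand, were looked for in the 250 bases before each start. None of the 4 genes with a promoter among the 6 chosen genes and Nebl held them, 1 of 11 did among 15 genes with higher levels in the members that are described further on, 0 of 11 did among 15 genes with lower levels, and 10.9% of 27025 genes did overall. A missing match says only that these letters are absent from this window. Shown are the promoters of Sema3g (chr14:31217623-31217872, plus strand) and Adamts9 (chr6:92943535-92943784, minus strand), as genes of the rule with no match, and the window before 1 of several starts of Sox6 (chr7:115824711-115824960, minus strand), which held both matches, in capitals.
Sema3g: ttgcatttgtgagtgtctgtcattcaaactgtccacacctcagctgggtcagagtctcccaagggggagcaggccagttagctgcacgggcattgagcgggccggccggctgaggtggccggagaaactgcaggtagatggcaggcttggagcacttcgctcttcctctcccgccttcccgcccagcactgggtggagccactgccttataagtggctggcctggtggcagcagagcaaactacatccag
Adamts9: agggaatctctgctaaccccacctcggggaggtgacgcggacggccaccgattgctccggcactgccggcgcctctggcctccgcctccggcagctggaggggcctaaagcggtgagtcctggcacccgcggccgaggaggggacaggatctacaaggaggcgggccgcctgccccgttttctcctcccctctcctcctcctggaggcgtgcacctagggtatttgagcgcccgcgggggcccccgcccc
Sox6: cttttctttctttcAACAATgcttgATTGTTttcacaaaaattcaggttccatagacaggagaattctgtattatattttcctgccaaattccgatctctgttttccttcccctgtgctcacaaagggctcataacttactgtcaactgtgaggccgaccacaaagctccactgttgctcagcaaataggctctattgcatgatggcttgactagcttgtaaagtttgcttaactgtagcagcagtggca

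The name given to these cells held in part. At least 1 count of Sox17 was found in 27.5% of members and of Adamts9 in 49.5%, both in 113 cells (13.5%) and either in 530 (63.5%). The gene that decided most memberships was Fbxl7. It was detected in 90.3% of members, made up 55.8% of their counts over the 6 genes, and was the largest of the 6 in 561 cells. It was also the least selective of them, with counts in 66.7% of capillary cells. In 116 members (13.9%) every count over the 6 genes came from Fbxl7, and 489 members (58.6%) had at least 3 counts without it. The cells are therefore called members by their rule, and not by Sox17 or Adamts9 alone.

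Detection of these genes outside endothelial cells differed between them. In the 15480 cells with 3 or more C1q counts and none of the general endothelial genes, which should lack them (median depth 2943.5 counts, against 2456 in members), the 6 genes were detected in 0.0517% (Sox17) to 1.73% (Fbxl7). In cells with Lrp2, a gene of the proximal tubule, and none of the endothelial genes (median depth 2859 counts), Adamts9 was detected in 18.1%, Fbxl7 in 3.26% and Sox17 in 0.0931%. Both classes held general endothelial genes. Pecam1, an adhesion molecule of endothelial junctions, was detected in 84.7% of members and 89.7% of capillary cells, Cdh5, the endothelial cadherin, in 63.2% and 64.2%, and Kdr, a receptor of vascular endothelial growth factor, in 57.2% and 82.5%. Members also held capillary genes, since 509 (61.0%) had at least 3 counts over Plvap, Igfbp5 and Plpp1 and 105 (12.6%) had none.

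**Figure D1:**
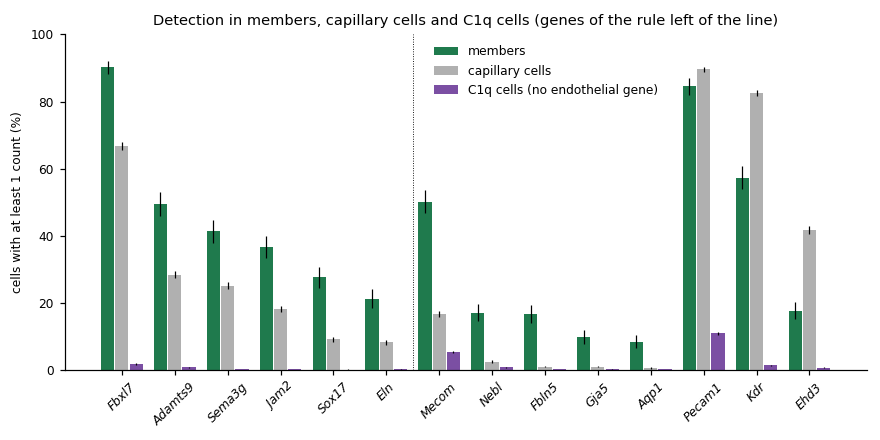
Percent of cells with at least 1 count of each gene (x axis, genes; y axis, percent, with exact 95% binomial intervals) in members, capillary cells and cells with C1q counts but no endothelial gene, for the 6 genes of the rule on the left and for other endothelial genes on the right. Fbxl7 stands at 90.3% in members and 66.7% in capillary cells, while Sox17 stands at 27.5% and 9.06%.

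The cells on either side of the thresholds were compared by their levels. The 88 members with exactly 3 counts over the 6 genes had 811 CPM (counts scaled to the same total in each pool) of Mecom, a transcription factor gene of arterial endothelium, and the 91 cells just outside, with 2 counts, had 1039. Ehd3, a gene of glomerular endothelium, stood at 74.6 CPM inside and 79.9 CPM outside, and Ptprc, which marks leukocytes, at 194 and 528 CPM. At the other edge, the 94 members with equal counts over the 6 genes and the capillary genes had 322 CPM of Mecom, 856 CPM of Kdr and 67.8 CPM of Nebl, and the 115 cells with 1 count fewer, just outside, had 361, 817 and 10.3 CPM. Fbln5, which encodes an elastic fibre protein, stood at 29.8 CPM inside and 10.7 CPM outside the first threshold and at 42.4 and 17.2 CPM at the second. Ptprc at the first threshold, Nebl at the second and Fbln5 at both differed by over 2-fold. These sets are small, with median depths from 1205 to 2245 counts per cell. The Fbln5 and Nebl levels therefore rest on few counts, and no interval was taken.

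Which endothelial genes went with the members was asked by setting their summed counts beside those of the capillary cells in the 7 pools. The rule rests on this same contrast, so the values are a description and carry no test. Of 8911 genes, 8.09% (721) were called higher and 5.29% (471) lower in members by edgeR at an adjusted p of 0.05, and nothing is read from these counts. Most listed genes of arterial endothelium and of the descending vasa recta stood higher in members, and so did the listed genes of mural cells and fibroblasts.

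Of 16 arterial genes, 12 were among the higher calls and 1, Nrp1, among the lower, with a median log2 difference of 2.50 against 0.00 over all genes. Gja5, which encodes the gap junction protein connexin 40, had 46.1 CPM in control members, 69.8, 76.0 and 10.00 CPM at days 1, 7 and 14 with vehicle, against 132, 149 and 27.0 CPM with entospletinib. In capillary cells it ranged from 1.87 to 15.9 CPM, so that only the day 14 vehicle members fell within the range of the capillary pools. Jag1, a Notch ligand, had 102 CPM in control members, 77.5, 123 and 143 CPM with vehicle, against 132, 226 and 229.8 CPM with entospletinib, against 6.43 to 20.5 CPM in the capillary pools. Fbln5 ranged from 60.5 to 194 CPM in members and from 2.56 to 6.87 CPM in capillary cells. The chemokine gene Cxcl12 ranged from 17.3 to 74.4 CPM in members and from 0 to 1.03 CPM in capillary cells. For these 3 genes every member pool lay above every capillary pool, which held for 1.27% of the 8911 genes, while every member pool lay below for 0.830%. The rule built this contrast, so nothing is read from it. Mecom was abundant in both, at 1007 to 2159 CPM in members and 96.4 to 319 CPM in capillary cells. Dll4, the other Notch ligand of arteries, overlapped widely, at 67.6 to 171 CPM in members and 66.7 to 121 CPM in capillary cells.

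**Figure D2:**
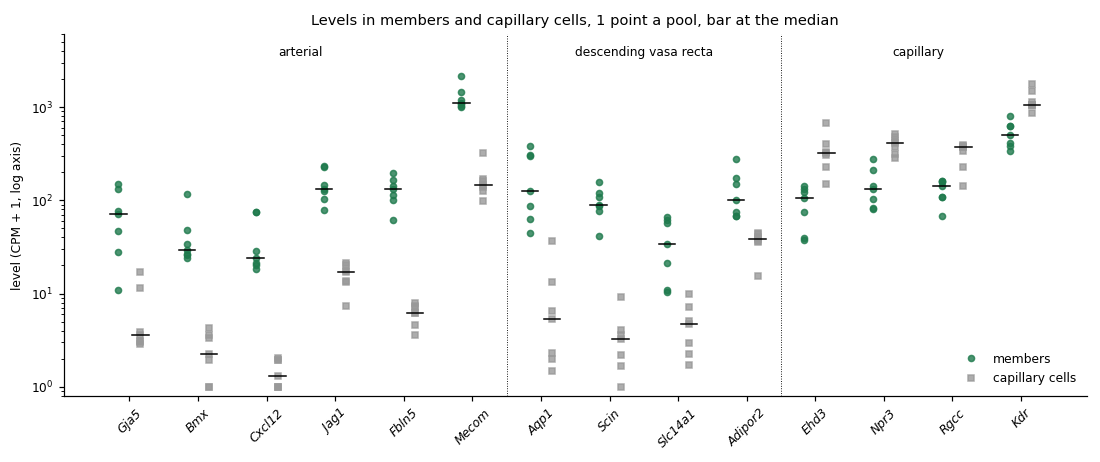
Level of each gene (y axis, CPM plus 1 on a log scale) in members and capillary cells, with 1 point for each of the 7 pools and a bar at the median, for arterial genes, genes of the descending vasa recta, and glomerular and peritubular genes. Mecom in members (1007 to 2159 CPM) lies above all capillary pools (96.4 to 319 CPM), and Ehd3 in capillary cells (148 to 669 CPM) lies above all member pools (36.7 to 142 CPM).

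Of the 6 tested genes of the descending vasa recta, 5 were among the higher calls and 0 among the lower, with a median log2 difference of 2.76. Aqp1, the water channel, had 296 CPM in control members, 62.0, 123 and 43.3 CPM at days 1, 7 and 14 with vehicle, against 85.6, 307 and 378 CPM with entospletinib. In capillary cells the highest level was 35.9 CPM, in the day 14 entospletinib pool, so the classes did not overlap. Slc14a1, the urea transporter, ranged from 9.50 to 65.4 CPM in members and lay lower, from 0.699 CPM upwards, in each capillary pool. Scin, which encodes an actin-severing protein, ranged from 40.0 to 156 CPM and from 0 to 8.11 CPM. Other genes that were high in members were Lef1, a transcription factor gene of the Wnt pathway, at 83.3 to 397 CPM against 2.10 to 20.6 CPM, the tetraspanin gene Tspan8, at 47.5 to 307 CPM against 0 to 12.9 CPM, and Sox6, at 120.0 to 623 CPM against 2.06 to 47.2 CPM. Some of these genes were also detected outside endothelial cells. Slc14a1 was found in 7.62% of the cells with C1q counts, against 5.39% of members. In the cells with Lrp2, Aqp1 was found in 13.2% and Sox6 in 43.7%, against 8.38% and 25.7% of members. Scin, Lef1 and Tspan8 were found in a smaller share of both kinds of cells than of members.

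Genes were ranked by fitted log2 difference among the higher calls with a mean of at least 50 CPM that were higher in all 7 pools. Genes of the rule and unnamed gene models were left out. The 15 that then stood furthest above capillary cells were Aqp1 (5.21), Tspan8 (5.20), Fbln5 (4.72), Lef1 (4.67), Cttnbp2 (4.57), Npnt (4.18), Fbn1 (4.02), Cdh13 (4.00), Sox6 (3.95), St8sia6 (3.83), Col12a1 (3.60), Nebl (3.43), Pde3a (3.38), Mgp (3.25) and Jag1 (3.17). Being higher in 7 of 7 pools was a condition of the choice, so it is no result about these genes. Markers of mural cells and fibroblasts moved with some of them. Cells with such a marker, 57 of the 835 members, held 62.4% of the Col12a1 counts, 63.2% of the Pde3a counts and 66.2% of the Mgp counts.

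Of the capillary lists, 2 of 7 glomerular and 3 of 6 peritubular genes were among the lower calls, and 1 of each, Tbx3 and Trp53i11, among the higher. Ehd3, a membrane trafficking gene of glomerular endothelium, had 142 CPM in control members, 132, 38.0 and 36.7 CPM with vehicle, against 120.3, 106 and 74.3 CPM with entospletinib, against 148 to 669 CPM in capillary pools. Npr3, a clearance receptor of natriuretic peptides, ranged from 79.0 to 276 CPM in members and from 285 to 514 CPM in capillary cells, and Rgcc from 66.6 to 159 CPM and from 140.1 to 391 CPM. Only Rgcc overlapped between the classes. Kdr and Tek, the receptors of vascular endothelial growth factor and of angiopoietins, were also lower, Kdr at 339.9 to 800.2 CPM against 872 to 1750.0 CPM and Tek at 447 to 732 CPM against 907 to 1502 CPM. The general endothelial list had 2 of 13 genes among the higher calls and 6 among the lower. The lists of glomerular, peritubular and venous genes (the last with 1 higher and 3 lower of 8) had medians of −0.34, −0.37 and −0.22.

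Genes of other cell types stood beside these differences. All 8 tested mural and 3 tested fibroblast genes were among the higher calls, with medians of 3.32 and 3.22. A count of any of the 15 markers of mural cells and fibroblasts was found in 57 members (6.8%) and in 136 capillary cells (2.1%), and their summed level ranged from 170.8 to 2042 CPM over the member pools and from 8.25 to 426 CPM over the capillary pools. None of 10 leukocyte genes was called in either direction, with a median of −0.05, and a count of any of them was found in 57.8% of members and 56.1% of capillary cells. The matrix list (8 higher, 2 lower of 23, median 0.28) and the list of mesenchymal transition genes (9 higher, 0 lower of 11, median 2.37) share collagen genes with the fibroblast markers, and the part of those cells in these list values was not tested. Of 13 immediate early genes, 12 were among the higher calls, with a median of 1.22. Fos, for example, ranged from 57.0 CPM in the day 7 vehicle members to 514 CPM in the day 14 entospletinib members, and from 32.6 to 126 CPM in capillary cells.

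Within the members, the arterial and vasa recta genes were found in cells that overlapped in part. These groupings were chosen after their values were seen and are given as shares of cells only. Of the 110 members with a count of Gja5 or Bmx, 38.2% also had Aqp1, Scin or Slc14a1, against 10.3% of the other 725. The 117 members with Aqp1, Scin or Slc14a1 had Lef1 in 63.2%, against 4.32% of the rest, and Mecom in 90.6%, against 43.6%. Their share with Ehd3 was 6.84%, against 19.4%. The 142 members with Nebl instead had Fbln5 in 46.5%, against 10.4%, and Sema3g in 71.1%, against 35.2%, while 12.0% of them had Aqp1, Scin or Slc14a1, against 14.4% of the rest. Sox17 was found in 41.5% of the 419 members with Mecom and in 13.5% of the others. Sox17, Sema3g, Eln, Adamts9, Jam2 and Fbxl7 chose the cells, so their shares within members depend on the rule. Deeper cells have more genes detected, which bears on all of these shares.

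How large the member population was in each condition depended on what it was counted against. Among all endothelial cells, members were 7.02% in control kidneys (exact 95% binomial interval 5.99 to 8.15%), 9.10%, 10.9% and 13.6% at days 1, 7 and 14 with vehicle, against 9.33%, 9.83% and 9.98% with entospletinib. Among all cells that passed the limits they were 1.40% in control kidneys, 0.783%, 0.475% and 0.406% with vehicle, against 1.08%, 1.88% and 0.889% with entospletinib. The first share was higher, and the second lower, in each vehicle pool than in the control pool, but with each cell thinned to 1000 counts the log2 ratio of the first share at day 7 went from 0.63 to −0.05. The sort was enriched for leukocytes, so shares of all cells move with the number of leukocytes recovered. Intervals cover counting error only.

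The log2 ratio of entospletinib to vehicle for the share among endothelial cells was 0.04 at day 1 (SD 0.55 over the 8 sublibraries), −0.14 at day 7 (SD 0.53) and −0.44 at day 14 (SD 0.40), where 7 of 8 sublibraries lay below 0. For the share among all cells it was 0.47 (SD 0.60), 1.99 (SD 0.70) and 1.13 (SD 0.44), above 0 in 8 of 8 sublibraries at days 7 and 14. Among members and capillary cells alone, the members made up 7.57% in control kidneys, 13.9%, 14.6% and 21.7% with vehicle, and between 10.7% and 12.1% with entospletinib, with log2 ratios of −0.34, −0.45 and −0.84. Over the 3 days the mean log2 ratio was −0.18 among endothelial cells (p = 0.50), 1.20 among all cells (p = 0.25) and −0.54 among members and capillary cells (p = 0.25), in two-sided exact sign-flip permutation tests in which 3 pairs cannot give less than 0.25. When Fbxl7 was left out of the rule, the day 7 ratio among endothelial cells was 1.09, and that among members and capillary cells was 0.73, both of the opposite sign, and the day 1 ratio among members and capillary cells was 0.16. With each cell thinned to 1000 counts the ratio among endothelial cells was −0.22 at day 1 and 0.22 at day 7.

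**Figure D3:**
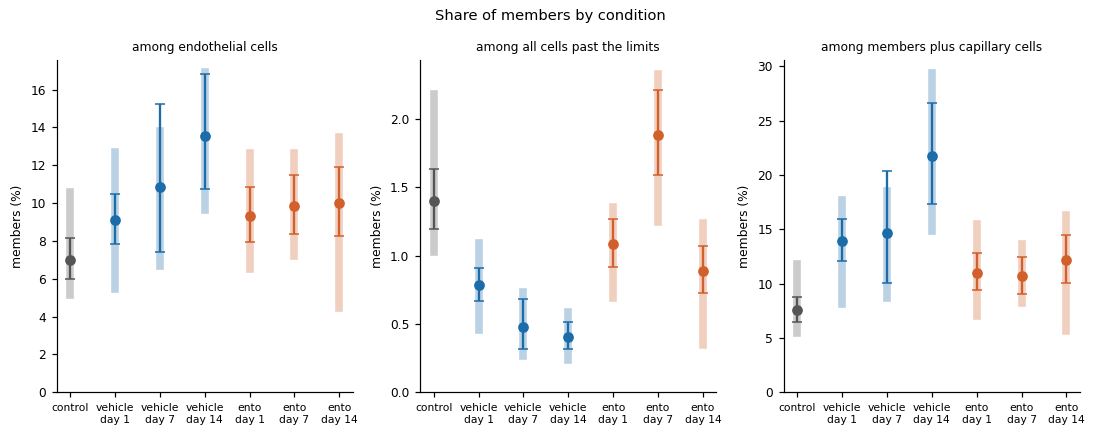
Share of members in each condition (y axes, percent) among endothelial cells, among all cells that passed the limits, and among members and capillary cells; points are the pool's share, error bars exact 95% binomial intervals and pale bars the range over the 8 sublibraries. Among endothelial cells the vehicle pools climb to 13.6% at day 14, and the entospletinib pools lie between 9.33% and 9.98%.

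Detection within the members also differed between pools. Sox17, Eln and Adamts9 are genes of the rule, so that a cell let in by one of them did not need another, and their shares are a description only. The day 7 entospletinib members held Sox17 in 52.4% of cells (exact 95% interval 43.9 to 60.9%), against 25.5% in control members, 20.5%, 13.8% and 28.6% with vehicle, against 23.7% and 17.6% at days 1 and 14 with entospletinib. With each cell thinned to 1000 counts the same pool had 26.6%, and the others 0 to 12.5%. Mecom, which the rule did not use, was at 74.1% there against 40.7 to 50.0% elsewhere, and at 65.7% against 25.0 to 48.5% after thinning. Eln was at 42.7% against 14.2 to 21.4%, and a count of Aqp1, Scin or Slc14a1 was at 25.9% against 8.92 to 13.9%. After thinning the pool hardly stood apart for these, with Eln at 23.1% against 19.7% in the day 14 entospletinib pool and the vasa recta genes at 17.5% against 16.4%. Adamts9 was lowest there, at 30.1%, and highest at day 1, at 62.5% with vehicle, against 63.2% with entospletinib. After thinning it was 15.4% there, and at day 1 39.3% with vehicle, against 57.4% with entospletinib. The thinned day 14 entospletinib share, 42.6%, lay above that of day 1 with vehicle. The day 7 vehicle pool held 29 members, 24 of them deep enough to be thinned, so the day 7 comparison between treatments rests on few cells.

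**Figure D4:**
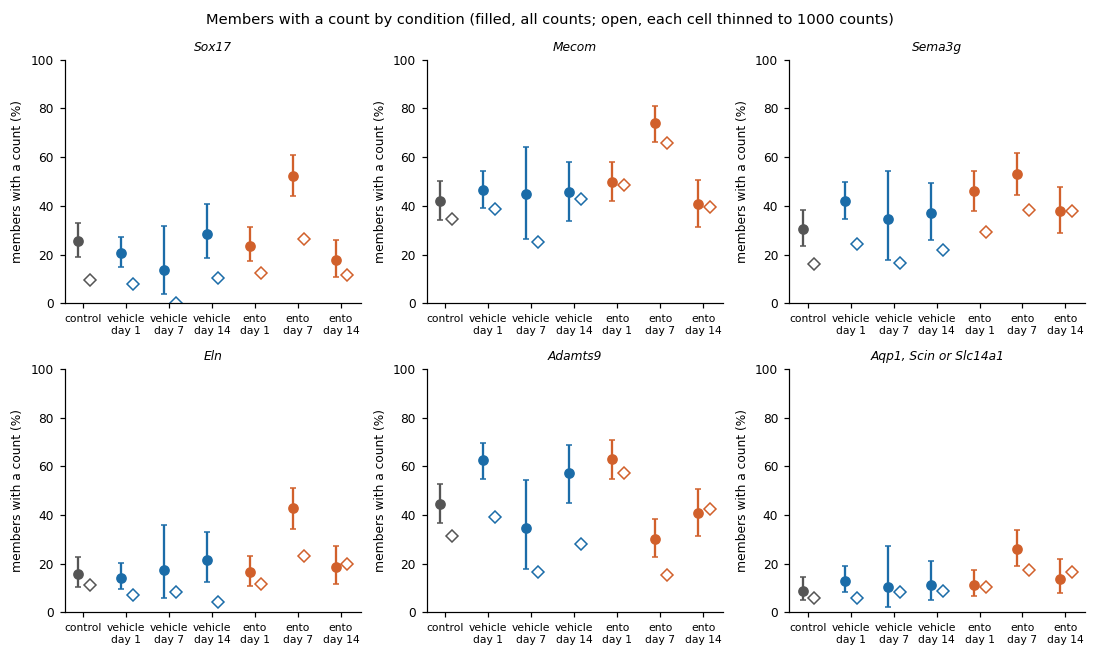
Percent of members with at least 1 count (y axis) in each of the 7 pools (x axis) for Sox17, Mecom, Sema3g, Eln, Adamts9 and any of Aqp1, Scin and Slc14a1; filled points with exact 95% binomial intervals use all counts, open diamonds each cell thinned to 1000 counts. The day 7 entospletinib members stand at 52.4% for Sox17 and 74.1% for Mecom, above each of the other 6 pools.

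Which genes entospletinib changed in the members, whatever the day, was tested with edgeR's quasi-likelihood test on the 6 injured pools, with day as a block and Benjamini-Hochberg adjustment. Of 6561 genes, 3 rose, which is 0.0457%, and 18 fell, which is 0.274%, so that 0.320% were called in all. The pools hold 3 mice each and the fit had 2 residual degrees of freedom. The calls best spread over cells were Zbtb16, which rose, and Zfp521, which fell. None of the 14 arterial, 5 vasa recta or 8 Notch genes tested was called, with median log2 changes of 0.49, 1.05 and 0.21 against 0.02 over all genes. DESeq2 called 0 of them too, and 5, 3 and 1 had an unadjusted p under 0.05, all higher. Of all 6561 genes, 433 (6.60%) did, 191 higher and 242 lower.

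Zbtb16 (chr9:48654297-48836222, minus strand) encodes a zinc finger transcription factor that glucocorticoids induce in many cell types. It had 468 CPM in control members, 35.7, 9.50 and 63.3 CPM at days 1, 7 and 14 with vehicle, against 60.2, 183 and 831 CPM with entospletinib. The vehicle and entospletinib pools overlapped only in that the day 14 vehicle value lay just above the day 1 entospletinib value, and at each day entospletinib was the higher. Zbtb16 rose by 2.55 on the log2 scale (adjusted p = 0.0141, edgeR) and was detected in 209 members. Without day 14 the change was 1.61 (adjusted p = 0.672) and without the day block 3.02 (adjusted p = 0.653); over 16 alternatives the adjusted p ranged from 8.72e-15 to 0.672 and missed 0.05 in 6. The rise was not particular to the members. Capillary cells had 442 CPM in control kidneys, 22.2, 26.8 and 38.6 CPM with vehicle, against 51.4, 172 and 761 CPM with entospletinib, and the difference between the classes was −0.43 (adjusted p = 1.00, edgeR). Of the 9 tested genes of the glucocorticoid response, Zbtb16 alone was called, and the list's median was 0.60.

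Zfp521, which encodes another zinc finger transcription factor, had 186 CPM in control members, 400.0, 294 and 353 CPM with vehicle, against 164, 126 and 87.9 CPM with entospletinib. All 3 vehicle pools lay above all 3 entospletinib pools. It fell by 1.48 on the log2 scale (adjusted p = 0.0141, edgeR), was detected in 247 members, and fell by 1.57 (adjusted p = 0.0240) among members without a mural or fibroblast marker. Without day 14 it fell by 1.29 (adjusted p = 0.210), and over 16 alternatives the adjusted p ranged up to 0.509 and missed 0.05 in 7. Capillary cells given vehicle had 369, 270.1 and 315 CPM, those given entospletinib 261, 158 and 109.7 CPM, and the difference between the classes was −0.63 (adjusted p = 0.806). Slco2a1, a prostaglandin transporter, was the only gene at least 2-fold higher with entospletinib at each of the 3 days (0.0658% of 1520), where 2 genes (0.132%), Csmd1 and Zfp521, were lower. It stood at 66.7, 47.5 and 103 CPM in vehicle pools, and in the entospletinib pools of the same days at 134, 185 and 291 CPM. Its change of 1.36 missed the threshold (adjusted p = 0.0571), as it did in 11 of 16 alternatives, but passed it without day 1 (adjusted p = 0.00803) or without day 7 (adjusted p = 0.0211).

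The other named calls rested on fewer members, from 3 for Ren1 to 61 for Efna5. Csmd1, which encodes a large membrane protein with complement control domains, had 361, 351 and 447 CPM in the vehicle pools, but 0, 11.3 and 6.76 CPM in the entospletinib pools (log2 change −6.00, adjusted p = 1.36e-06, edgeR). It was past the threshold in each of 14 alternatives, but its 517 counts lay in 21 members, 230 of them in 1 cell and 90.3% in 5 cells, and control members had 205 CPM. Rbfox1 was called higher (3.92, adjusted p = 0.0425) from 19 cells, with 88.7% of its counts in members with a mural or fibroblast marker, and Efna5, an ephrin ligand, was called higher (1.94, adjusted p = 0.0233) from 61 cells. Efna5 levels were 49.6, 28.5 and 20.0 CPM for vehicle, against 118, 147 and 162 CPM for entospletinib, and its adjusted p was 0.348 without day 14. Ren1, the renin gene of juxtaglomerular cells, was called lower from 3 cells.

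By list, 2 of 3 tested fibroblast genes, 3 of 10 mesenchymal transition genes and 1 of 8 mural genes fell, and of 23 matrix genes 0 rose and 0 fell (10 at an unadjusted p under 0.05, 2 higher and 8 lower, against 433 of all 6561 genes, and 0 called by DESeq2). The first of these are collagens. Col1a1 and Col3a1, the chains of fibrillar collagens, had 12.4, 978 and 337 CPM and 29.5, 655 and 483 CPM with vehicle, and 2.31, 40.6 and 40.5 CPM and 0, 81.2 and 20.3 CPM with entospletinib. Their log2 changes were −4.11 and −3.66. Other named genes that fell were Col1a2, Col6a3, Col5a2, Tnc, Spon1, Cdh11, Ncam1, Runx2, Tenm3, Lhfp and Cacna1c. Counts of Col5a2 lay in 59 members, of Cacna1c in 55 and of Runx2 in 43. For Runx2, 25.8% of the counts lay in members with a mural or fibroblast marker and 42.4% in 1 cell. Col1a1 and Col3a1 are themselves among the 15 mural and fibroblast markers, so their counts lie in cells with a marker by definition. The Col1a1 counts lay in 14 members, with 41.5% of them in 1 cell. The summed level of the 15 such markers was 947, 2042 and 1779.5 CPM in vehicle pools, against 611, 338 and 229.8 CPM in entospletinib pools, in 13, 3 and 10 members and in 9, 6 and 4. Without those 57 cells, which takes the marker genes out by construction, 1 gene rose and 3 fell.

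**Figure D5:**
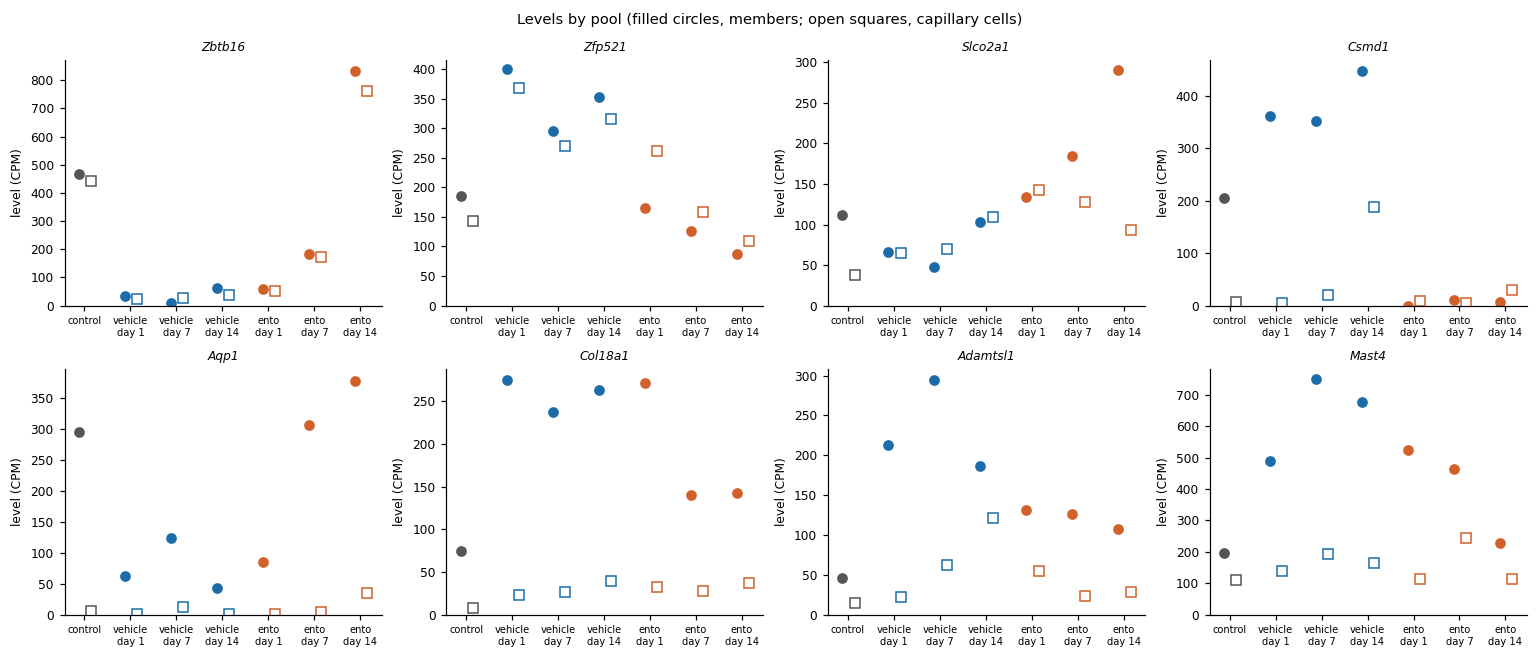
Level of Zbtb16, Zfp521, Slco2a1, Csmd1, Aqp1, Col18a1, Adamtsl1 and Mast4 (y axes, CPM) in each of the 7 pools (x axis), filled circles for members and open squares for capillary cells. Zbtb16 runs alike in both classes, with 468 and 442 CPM in control kidneys and 831 and 761 CPM at day 14 with entospletinib, while each member pool lies above each capillary pool for Aqp1 and Col18a1.

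Whether entospletinib acted differently on members and capillary cells was tested as an interaction, with the pool as a block. Of 8731 genes, 0 (0.00%) were called higher and 1 (0.0115%) lower by edgeR, 412 had an unadjusted p under 0.05, of which 221 were higher, and DESeq2 also called 0 higher. The gene called was Ank3, which encodes a membrane-cytoskeleton adaptor. In members the vehicle pools had 136, 189.9 and 60.0 CPM, the entospletinib pools 69.4, 60.9 and 94.6 CPM, while in capillary cells the same pools had 22.2, 18.6 and 18.0 CPM, then 44.3, 61.5 and 92.3 CPM. The difference of the changes was −2.34 on the log2 scale (adjusted p = 0.0175, edgeR). Its counts lay in 102 members, with 15.1% in 1 cell, 38.0% in 5 cells and 28.6% in members with a mural or fibroblast marker, without which the difference was −2.59 (adjusted p = 0.00209). At day 14 the members were higher with entospletinib, against their direction at the other days. Without day 1 the adjusted p was 0.146 and without day 7 it was 0.332; it missed 0.05 in 6 of 15 alternatives, over which it ranged up to 0.655.

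Differences at single days have 1 pool on each side and no test. A gene was counted when it was at least 2-fold apart among genes that averaged 100 CPM or more and had 10 counts or more in 1 of the pools. At day 1, entospletinib differed little from vehicle, with 10 of 2038 genes (0.491%) higher and 24 (1.18%) lower. At day 7, 196 of 1835 genes (10.7%) were higher and 92 (5.01%) lower, and at day 14, 103 of 1889 (5.45%) were higher and 108 (5.72%) lower. TMM scaling moved the split to 12 higher and 18 lower at day 1 and to 56 higher and 160 lower at day 14. The median log2 difference over these genes was −0.11, 0.22 and 0.02, and at day 14 it was −0.17 with TMM scaling.

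At day 7, all 3 counted genes of the descending vasa recta were higher with entospletinib, Aqp1 by 1.31, Scin by 1.03 and Adipor2, an adiponectin receptor, by 2.06, although the day 7 vehicle counts of Aqp1 lay in 1 cell. At day 14, Aqp1 and Adipor2 were again higher, while at day 1 none of the list was high enough to be counted. Aqp1 was also detected in 13.2% of the cells with Lrp2. The summed level of 8 proximal tubule markers in members was 186, 142 and 46.7 CPM with vehicle, against 153, 194 and 216 CPM with entospletinib. Their part in the Aqp1 differences was not tested. Of the immediate early genes, 6 of 8 were higher at day 7 and 6 of 11 at day 14, and 1 of 8, Egr1, was lower at day 1 (by 1.16). The list of flow-responsive and vasoactive genes included Klf2, a transcription factor gene induced by shear stress, at 74.4, 85.5 and 93.3 CPM in vehicle pools, then 125, 257 and 277 CPM in entospletinib pools. None of 5 counted genes of that list was past 2-fold at day 1, while 3 of 7 were higher at day 7 and 4 of 7 at day 14. The edgeR test over the 3 days called 0 of its 10 tested genes and 0 of 13 immediate early genes in either direction, with median log2 changes of 0.39 and 0.61. At an unadjusted p under 0.05 there were 4 and 6, all higher, against 6.60% of all genes, and DESeq2 called 0. At day 14, 3 of 3 counted class I antigen presentation genes and 3 of 4 glucocorticoid response genes were higher. H2-D1 and B2m each differed by 1.04, which TMM scaling brings under 2-fold, and Fkbp5, a chaperone gene induced by glucocorticoids, by 2.62. The day 14 entospletinib members were the shallowest, with 47 of 108 cells under 1000 counts, and the part of depth in these differences was not tested. Mesenchymal transition genes were lower in 5 of 8 at day 7 and 6 of 7 at day 14, with the collagens whose cells are given above among them.

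Against the control pool, the vehicle members had 84 of 1996 genes (4.21%) higher and 44 (2.20%) lower at day 1, 82 of 1795 (4.57%) and 159 (8.86%) at day 7, and 84 of 1872 (4.49%) and 101 (5.40%) at day 14. With TMM scaling the day 1 split was 55 higher and 65 lower. These 3 comparisons share the control pool, and share their vehicle pools with those above. Genes past 2-fold at each of the 3 days numbered 8 higher (0.499% of 1603) and 10 lower (0.624%).

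Most of the 8 higher genes are given here 1 by 1. Col18a1, whose product holds the endostatin fragment of basement membranes, had 74.8 CPM in control members, 274, 237 and 263 CPM with vehicle, against 271, 139.9 and 142 CPM with entospletinib, against 8.16 to 39.9 CPM in capillary pools. Adamtsl1, a secreted protein related to Adamts9 without its protease domain, had 46.1 CPM in control members, 212, 294 and 187 CPM with vehicle, against 132, 126 and 108 CPM with entospletinib. Each of the 6 injured pools lay above the control pool for both genes. Mast4, a kinase gene, had 196 CPM in control members and 488, 750.2 and 676 CPM with vehicle, and Vim, the intermediate filament of mesenchymal and endothelial cells, had 90.2 CPM and 222, 256 and 269.9 CPM. The summed level of the mural and fibroblast markers was higher as well, going from 170.8 CPM in control members to 947, 2042 and 1779.5 CPM with vehicle. Cells with such a marker held 36.7% of the Col18a1, 20.2% of the Adamtsl1, 15.2% of the Mast4 and 19.5% of the Vim counts, and their part in these differences was not tested. Il1b and Plek, genes of myeloid cells, were also among the 8. Il1b had 78.7 CPM in control members and 319, 418 and 257 CPM with vehicle, and capillary cells had 68.3 CPM and 469, 540.1 and 444 CPM. The 5 neutrophil markers moved with them, from a sum of 42.2 CPM in control members to 344, 256 and 96.6 CPM, and their part in these differences was not tested.

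Among the 10 lower genes, Zbtb16 stood below the control pool by 3.71, 5.62 and 2.89 on the log2 scale at days 1, 7 and 14. Aqp1 was lower by 2.25, 1.26 and 2.77 and Adipor2 by 1.20, 1.36 and 1.36, which were all the vasa recta genes counted at days 7 and 14, while Scin, counted at day 1, was not past 2-fold. The Aqp1 counts lay in 9 control members and in 12, 1 and 4 members with vehicle, and those of Adipor2 in 31 and in 32, 3 and 11. The share of members with a count of Aqp1, Scin or Slc14a1 was not lower, at 8.92% in control kidneys and 13.1%, 10.3% and 11.4% with vehicle. The summed proximal tubule markers went from 259 CPM in control members to 186, 142 and 46.7 CPM with vehicle. Their part in the Aqp1 differences was not tested. Edil3, which encodes an integrin ligand of the vessel wall, had 294 CPM in control members and 82.2, 123 and 73.3 CPM with vehicle, and Chsy3, a chondroitin synthase, had 196 CPM and 77.5, 19.0 and 33.3 CPM. Rcsd1 had 516 CPM and 223, 247 and 247 CPM. Slc8a1 and Slc12a3 were lower too, but 1 cell held 576 of the 1302 counts of Slc8a1 and 132 of the 277 counts of Slc12a3.

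Other differences from the control pool were seen at single days. At day 1, Angpt2, a ligand of Tek that destabilizes vessels, had 196.9 CPM against 82.5 CPM in control members, and Thbs1, which encodes thrombospondin, had 251 CPM against 38.4 CPM. At day 7, Thbs1 stood at 57.0 CPM, and at day 14 at 309.9 CPM, so that it was not high at every day. At day 14, 6 of 9 immediate early genes and 6 of 18 matrix genes were higher, against 4.49% of all genes. So were 3 of 3 fibroblast genes and the 1 counted mural gene, Rgs5. Over all members, cells with a mural or fibroblast marker held 66.2% of the counts of Mgp and 36.7% of those of Col18a1, 2 of the matrix genes. The part of those cells was not tested. In the day 14 vehicle pool Kdr was 1.24 lower on the log2 scale, Rgcc 1.26 lower and Esm1, a proteoglycan gene of peritubular capillaries, 1.15 lower. Of 5 counted peritubular genes, 3 were lower and 1, Trp53i11, was higher. Of 10 counted general endothelial genes, 2 were lower and 0 higher, against 5.40% lower and 4.49% higher of all genes.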

How the data were processed

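The authors sequenced fixed single cells with a split-pool whole transcriptome kit and deposited gene counts per cell (transcripts with unique molecular identifiers) made with the Parse Biosciences data analysis pipeline 1.1 on mm10, with a table that gives each cell's condition. GEO's 8 samples each mix all 7 conditions, so groups came from that table. Matrix totals equalled the table for all 120281 barcodes (388617036 transcripts, 57010 genes). Cells with more than 300 genes, under 20000 counts and under 25% mitochondrial counts were kept. No doublet caller was run. Members, and the gene lists, were chosen with earlier results of these data known.

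Counts were summed per pool and class and tested in R 4.3.3 with edgeR 4.0.16 (TMM, quasi-likelihood, low-count filter, Benjamini-Hochberg adjustment, threshold 0.05). The alternative tool was DESeq2 1.42.0. The edgeR step was tested on simulated data. Day served as the block because it labels both treatments; deviations of the 2 pools of a day correlated at 0.22, 0.07 and 0.07. Nothing in the sources makes the 3 mice of a pool separate replicates, so p-values measure the spread between pools over days. Shares used exact Clopper-Pearson intervals. A zero was set to a floor of 3 counts where a fold was taken. For the class comparison, named genes were the 15 called genes furthest up and down with a mean of at least 50 CPM and the same direction in every pool. For the treatment test they were up to 15 called genes in each direction by size, without those 2 limits. The gene called in the interaction and genes past 2-fold at all 3 days were named as well. RefSeq promoters matched 4 of the 7 genes of the rule and Nebl.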

Additional observations from a re-analysis of the deposited data

Results flagged for a closer look

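The share of members among endothelial cells at day 14 with entospletinib was low in 1 sublibrary, at 4.46%, with the other 7 up to 13.5%. The gap to its nearest neighbour was 0.53 of the range, past Dixon's critical value for 8. In all, 14 sets of 8 sublibraries were examined, and chance alone sets off about 1 in 20.

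Ank3 differed between members and capillary cells in its change with entospletinib, by −2.34 on the log2 scale (adjusted p = 0.0175, edgeR). It was singled out because the difference between the classes itself passed the threshold.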

How the results depend on the processing

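Few calls of the treatment test were stable. Against 3 genes higher and 18 lower with entospletinib, the counts were 8 and 30 with more than 500 genes per cell, 19 and 52 without a low-count filter, 0 and 10 with library totals alone, 0 and 2 with cells thinned to 1000 counts, 0 and 6 with at least 2 counts over the 6 genes, and 0 and 1 with no replicate block; leaving out a day gave 0 to 36 and 4 to 67. At least 4 counts left 7 lower, the ribosomal limit of 1.5% left 8, cells with no count of another lineage 9, and DESeq2 called 1 higher. Of settings chosen after seeing the data, leaving Fbxl7 out of the rule gave 0 and 2, and leaving out cells with a mural or fibroblast marker 1 and 3.

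For the interaction, with 0 higher and 1 lower, the counts were 1 and 2 with the ribosomal limit, 1 and 3 without another lineage, 6 and 13 without the filter, 3 and 4 without mural or fibroblast markers, and 2 higher without Fbxl7. No gene was lower (0) with at least 2 or 4 counts or with thinning, and leaving out a day gave 0 to 1 and 0 to 2. The 721 higher and 471 lower genes of the class comparison were 316 and 285 after thinning and 286 and 188 with no replicate block, and 749 were lower without the filter.

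For the 2-fold counts, a floor of 50 CPM at days 1, 7 and 14 gave 35, 447 and 368 genes higher and 80, 234 and 276 lower with entospletinib, and 204, 213 and 204 higher and 100, 422 and 223 lower with vehicle against control. Without Fbxl7 the entospletinib counts were 29, 404 and 167 higher and 68, 153 and 189 lower, and the vehicle counts 163 higher at day 1 and 117, 412 and 174 lower. Thinning gave 42 and 173 higher (days 1 and 14) and 64 and 154 lower (days 1 and 7) with entospletinib, and 141 and 168 higher (days 1 and 7) and 72 lower (day 1) with vehicle. Without another lineage, day 1 gave 21 and 42 with entospletinib. TMM scaling gave 56 higher at day 14 with entospletinib and 55 higher at day 1 with vehicle. Leaving out a sublibrary gave 9 to 19 and 25 to 36 at day 1 with entospletinib. Without Fbxl7 the day 7 log2 share ratios, −0.14, 1.99 and −0.45 with it, were 1.09, 3.22 and 0.73 over the 3 denominators. Thinning, with the rule applied to the thinned counts, turned the small ratio among endothelial cells at day 1 from 0.04 to −0.22, that at day 7 from −0.14 to 0.22, and that of vehicle to control at day 7 from 0.63 to −0.05. The day 1 ratio was also below 0 with no other lineage (−0.32), with at least 2 counts (−0.03) and in 3 of 8 fits that left out a sublibrary, and the day 7 ratio was 0.01 with at least 4 counts. The cause of these shifts was not tested. No gene named from a test turned its direction in that test. The day 7 vehicle pool, with 29 members, limits what depth can show.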
